A study of Mus musculus with 9 samples.

Results

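The 10 genes described here, of 54532 listed, make up the interleukin-10 (IL-10) and transforming growth factor beta (TGF-beta) axis. They were taken by gene symbol, chosen with earlier results of these data known, and all 10 were found. They are Il10 and its receptor chains Il10ra and Il10rb, the ligand Tgfb1 with its receptors Tgfbr1 and Tgfbr2, the integrin chains Itgav and Itgb8, and the intracellular mediators Smad3 and Smad7. RNA was sequenced from 3 populations of mouse spleen cells, with 3 samples each. N-mDCs were mature conventional dendritic cells (cDCs) of normal, untreated mice. T-DCs were CD11c+MHCIIlo cells, called immature DCs in the labels, and T-mDCs were mature cDCs, both from mice with T-cell acute lymphoblastic leukemia (T-ALL). The leukemia came from bone marrow cells carrying a retrovirus with the intracellular domain of Notch1 and GFP. The GFP+ leukemia cells were then given without irradiation to female C57BL/6J or C57B6.SJL mice, so that the hosts kept their own blood cells. Cells were sorted at the late stage of disease. Which of both host strains gave each sample, and whether animals were pooled, is not given in the sources used here, and p-values therefore measure the spread between these samples, which may be partly technical.

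IL-10 is a secreted cytokine that restrains antigen presentation and inflammatory cytokines. It binds a receptor of IL10RA, which gives specificity for the cytokine, and IL10RB, which is shared with other cytokines of the family, and it signals through JAK1, TYK2 and STAT3. TGF-beta1 is made as a latent complex that must be freed before it acts, and the integrin of the alphav and beta8 chains is an activator of it on DCs. Active TGF-beta binds TGFBR2, which recruits and phosphorylates TGFBR1, and the pair phosphorylates SMAD2 and SMAD3, while SMAD7, itself induced by the signal, blocks the receptor. Both cytokines are known for holding DCs in an immature or tolerogenic state.

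Levels are given in FPKM, the reads on a gene scaled by its length and by 1 size for each sample. They can thus be compared between genes. That size was not the number of reads on genes. It was 15498648 against 16977553 reads in T-DC sample 2, and 19326367 against 18288160 reads in T-mDC sample 2. How the size was set is not given in the sources used here. Median of ratios factors of the deposited values ran from 0.981 to 1.015. Reads on genes ranged from 15360815 to 18440913 per sample, and a single read per kilobase of gene stood for 0.0517 to 0.0659 FPKM. Differences between groups are differences of mean log2(FPKM + 1) from 1 limma fit of the 12746 genes that reached an FPKM of 1 in 3 or more samples. A gene was called when its adjusted p was under 0.05. Of the 10 genes, 9 were tested and Itgb8 was below the filter. All 3 comparisons draw on the same 9 samples, so none is independent of the others.

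Samples differed in ways that bear on these genes. T-DC sample 1 stood apart from T-DC samples 2 and 3, with r of 0.836 and 0.808 to them over genes against 0.961 between samples 2 and 3. The summed level of 8 erythroid genes was 607 FPKM in T-DC sample 1, 58098 in sample 2 and 42452 in sample 3, and lay between 15.1 and 5359 in the other groups. That of 7 neutrophil genes was 8.55, 4184 and 1471 FPKM in T-DC samples 1 to 3, and 3.59 to 654 FPKM in the other groups. For 3 proliferation genes it was 21.1, 390 and 352 FPKM in T-DC samples 1 to 3, and 20.8 to 87.1 FPKM in the other groups. The DC genes Itgax, Flt3 and Zbtb46 summed to 169, 99.3 and 50.9 FPKM in T-DC samples 1 to 3, below the 215 to 325 FPKM of N-mDCs and the 232 to 280 FPKM of T-mDCs. Most of each T-DC sum was Itgax, at 152, 90.4 and 43.0 FPKM. Flt3 was at 15.4, 6.11 and 4.48 FPKM in T-DC samples 1 to 3, and at 44.4 to 89.1 FPKM in the other groups. Zbtb46 had the reverse order in the T-DCs, at 1.84, 2.84 and 3.42 FPKM, beside 10.7 to 23.5 FPKM in the other groups. T-mDC samples 2 and 3 were much alike, with a chi-square per gene of 1.85 against 8.11 or more for every other pair within a group.

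**Figure D1:**
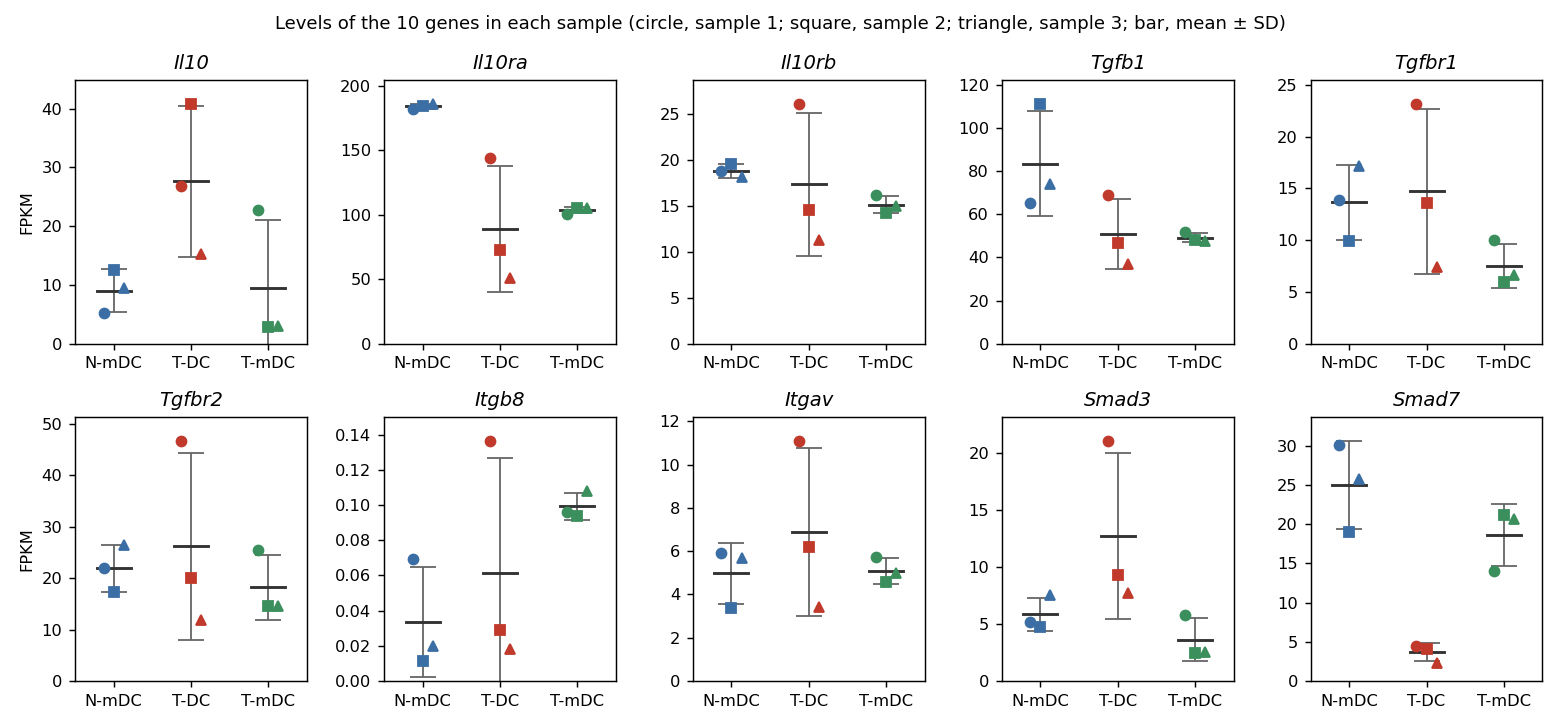
FPKM of the 10 genes in each sample of the 3 populations, on linear axes that start at 0. Points are samples, horizontal bars are means and whiskers are SD (n = 3), with whiskers that would pass below 0 stopped there. Smad7 lies below 5 FPKM in all 3 T-DC samples and above 14 FPKM in all others, while T-DC sample 1 is the highest T-DC sample for each gene except Il10.

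Il10, the ligand, was detected in every sample and had its highest mean in T-DCs. Its level was 5.13, 12.5 and 9.38 FPKM in N-mDC samples 1 to 3, 26.8, 40.8 and 15.2 FPKM in T-DC samples 1 to 3, and 22.7, 2.76 and 3.03 FPKM in T-mDC samples 1 to 3. Every T-DC sample was above every N-mDC sample, whereas T-mDC sample 1 lay within the range of the T-DCs. The gene (ENSMUSG00000016529) lies on chromosome 1 at 131019845 to 131024974 on the plus strand of mm10, and between 70 and 829 reads stood behind each value. The mean was 27.6 ± 12.8 FPKM (SD, n = 3) in T-DCs and 9.01 ± 3.71 FPKM in the N-mDCs, a ratio of 3.06. The difference did not pass the test, at 1.48 log2(FPKM + 1) (SE 0.70; 95% interval -0.11 to 3.08; limma adjusted p = 0.1655). Against T-mDCs it was 1.90 (SE 0.70; 0.31 to 3.50; limma adjusted p = 0.107), and it did not pass there either. Il10 was called in 2 of 23 alternative settings in each of these comparisons, and leaving out T-mDC sample 1 was among them. Without that sample the difference from T-mDCs was 2.77 (limma adjusted p = 0.00683). The difference from N-mDCs stayed at 1.48 and had a limma adjusted p = 0.0460, since only the shared estimate of the spread changed. With only the groups compared, which leaves out all T-mDC samples, Il10 was not called against N-mDCs.

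Within T-mDCs, markers of several other cell types were high in the sample with high Il10. T-mDC sample 1 held 1150 FPKM of the 5 complement macrophage genes against 381 and 376 in T-mDC samples 2 and 3, and 749 FPKM of the 7 red pulp macrophage genes against 166 and 171. For the 6 monocyte genes the same sample held 245 FPKM against 74.0 and 73.3. It also held more of the B cell genes (180 against 49.4 and 51.7 FPKM), the plasma cell genes (244 against 57.2 and 58.8 FPKM) and the plasmacytoid DC genes (169 against 69.6 and 64.8 FPKM). The T-DC samples, from the lowest to the highest level of Il10, held 460, 742 and 868 FPKM of the monocyte genes, and N-mDCs held 240 to 484 FPKM. No single monocyte gene kept that order in the T-DCs. The sum came mostly from Csf1r (176, 609 and 281 FPKM in T-DC samples 3, 1 and 2) and Chil3 (240, 108 and 528 FPKM). The complement macrophage genes were at 2474, 834 and 519 FPKM in T-DC samples 1 to 3 and at 1191 to 2882 FPKM in N-mDCs, which did not follow the order of Il10. The same held for the red pulp macrophage genes, at 1601, 512 and 287 FPKM in T-DC samples 1 to 3 and 1181 to 1829 FPKM in N-mDCs. No gene of these lists was at 0 in all samples, and their part in the level of Il10 was not tested. In sorted bulk samples like these, more cells of a type and more RNA per cell cannot be told apart.

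**Figure D2:**
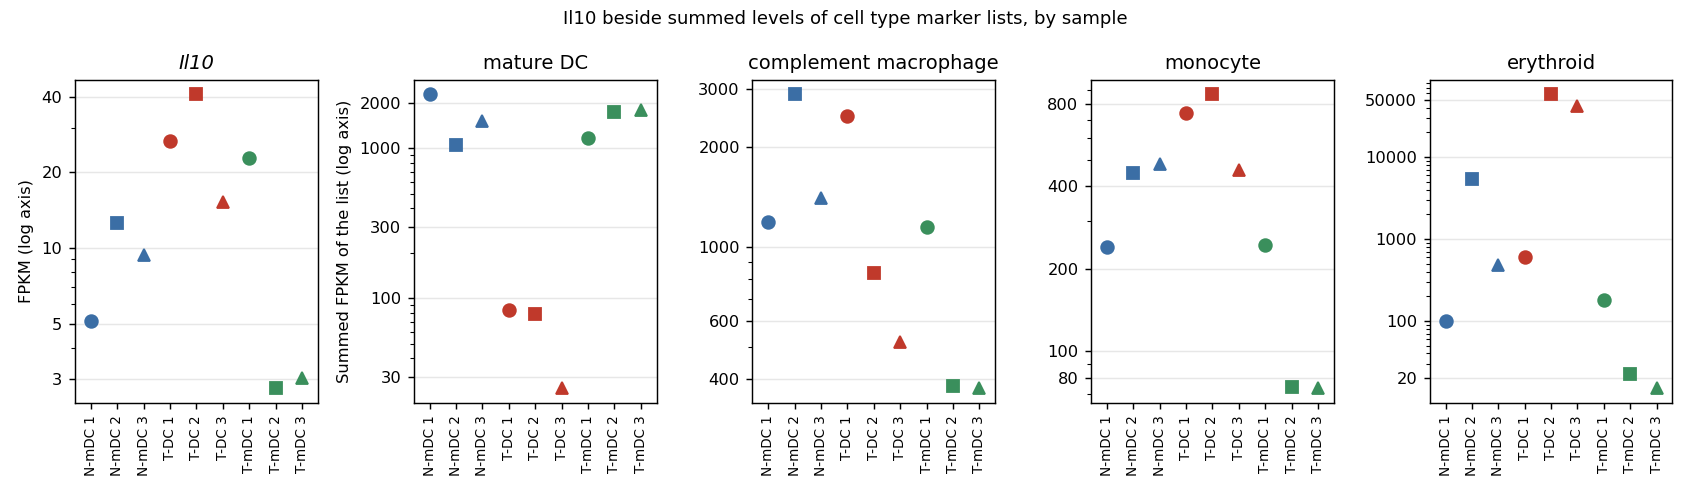
Il10 (FPKM) and the summed FPKM of 4 marker lists in each of the 9 samples, on log axes, with 1 point per sample. T-mDC sample 1 is above T-mDC samples 2 and 3 for Il10 and for the macrophage and monocyte lists, and the mature DC list is at or below 83.4 FPKM in all T-DC samples and at 1060 FPKM or more in all others.

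Other cytokines of the IL-10 family were near or at 0. Il20 and Ifnl3 had no read in any sample, and Il19, Il22 and Il24 reached at most 0.278 FPKM. Of the 11 family cytokines and partner receptors besides the main genes, only Ifnlr1 passed the filter. Ifnlr1 pairs with Il10rb in the receptor for type III interferons. Its level was 0.688, 0.386 and 0.738 FPKM in the N-mDCs, 0.948, 1.33 and 0.677 FPKM in the T-DCs, and 4.598, 2.55 and 2.665 FPKM in the T-mDCs. The T-mDC samples were above all others, and the gene was called higher in T-mDCs than in N-mDCs (1.39 log2(FPKM + 1), SE 0.23, limma adjusted p = 0.0232) and lower in T-DCs than in T-mDCs (-1.09, SE 0.23, limma adjusted p = 0.01799).

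Among 9 factors known to act on transcription or stability of Il10 mRNA, all tested, 2 (22.2%) fell in T-DCs against N-mDCs and none rose. Of all tested genes, 10.3% were called lower and 6.1% higher there. Without overlap, T-DC samples of 3 of the 9 lay above the N-mDCs and of 4 below, beside 16.0% and 16.4% of all tested genes. Crem, which encodes cAMP-responsive regulators of transcription, stood at 10.4, 12.3 and 20.1 FPKM in the N-mDCs, 1.12, 1.62 and 1.05 FPKM in the T-DCs and 0.890, 1.15 and 1.39 FPKM in the T-mDCs. It fell in both populations of leukemic mice, with differences of -2.71 (SE 0.25, limma adjusted p = 0.000696) in T-DCs and -2.79 (SE 0.25, limma adjusted p = 0.00273) in T-mDCs, with no overlap with N-mDCs. Zfp36 encodes tristetraprolin, which binds AU-rich mRNAs, Il10 among them, and speeds their decay. It was at 919, 1314 and 1067 FPKM in the N-mDCs and 773, 268 and 206 FPKM in the T-DCs, with T-DC sample 1 nearest to the N-mDCs. The difference was called (-1.63, SE 0.44, limma adjusted p = 0.0384), but in only 8 of 23 alternative settings. Between T-DCs and T-mDCs limma called 0 of the 9, with 3 at an unadjusted p under 0.05 and 1 called by limma voom on reads.

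Il10ra, the chain that binds IL-10 with high specificity, was the most abundant of the 10 genes in every group, and it fell in T-DCs against N-mDCs. Il10ra (ENSMUSG00000032089, chromosome 9, 45253837 to 45269149, minus strand) stood at 182, 184 and 186 FPKM in the N-mDCs, 144, 72.4 and 50.5 FPKM in the T-DCs, and 101, 105 and 105 FPKM in the T-mDCs. All samples of leukemic mice lay below all N-mDC samples, and the T-DC samples lay on both sides of the T-mDCs. The difference of T-DCs from N-mDCs passed the test at -1.18 log2(FPKM + 1) (SE 0.33; 95% interval -1.93 to -0.43; limma adjusted p = 0.0429). It passed in 9 of 23 alternative settings and kept its direction in all 23. Leaving out any of the N-mDC samples, any of the T-mDC samples, or T-DC sample 2 or 3 ended the call, with a difference of -0.85 without T-DC sample 3. The call also ended in TPM, with no filter, with only the groups compared, with a replicate block, when T-mDC samples 2 and 3 were averaged, and with the level of the erythroid genes as a covariate, where the difference was smallest at -0.55. Against T-mDCs it was -0.35 (-1.11 to 0.40; limma adjusted p = 0.501), and in T-mDCs against N-mDCs -0.82 (-1.57 to -0.07; limma adjusted p = 0.2565). The gene overlaps Gm20612 on the opposite strand and Mir7086, and whether reads were counted by strand is not given in the sources used here.

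Il10rb (ENSMUSG00000022969, chromosome 16, 91406164 to 91425834, plus strand), the shared chain, was at 18.8, 19.6 and 18.1 FPKM in the N-mDCs, 26.1, 14.6 and 11.3 FPKM in the T-DCs and 16.1, 14.3 and 15.0 FPKM in the T-mDCs. T-DC sample 1 was above and T-DC samples 2 and 3 were below the N-mDCs, and no comparison was called. The differences were -0.19 (95% interval -0.81 to 0.42) for T-DCs against N-mDCs, 0.10 (-0.51 to 0.71) for T-DCs against T-mDCs and -0.30 (-0.91 to 0.31) for T-mDCs against N-mDCs. In TPM the difference between T-DCs and T-mDCs turned to -0.22. Il10rb overlaps Gm21970 on the same strand.

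The FPKM ratio of both chains within a sample does not depend on how that sample was scaled. For the log2 ratios that were tested, with 1 added to each FPKM, this holds only roughly. The FPKM of Il10ra was 9.70, 9.41 and 10.3 times that of Il10rb in N-mDCs, 5.51, 4.97 and 4.48 times in T-DCs and 6.26, 7.37 and 6.997 times in T-mDCs. The 3 groups did not overlap, with the lowest ratio in T-DCs and the highest in N-mDCs. On the log2 scale with 1 added to each FPKM, the difference of T-DCs was -0.98 from N-mDCs and -0.46 from T-mDCs, and that of T-mDCs from N-mDCs was -0.53. Each gave p = 0.1 in a two-sided exact permutation test, the smallest that 3 against 3 samples allows, and 0.1875 after adjustment over the 15 ratio tests.

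**Figure D3:**
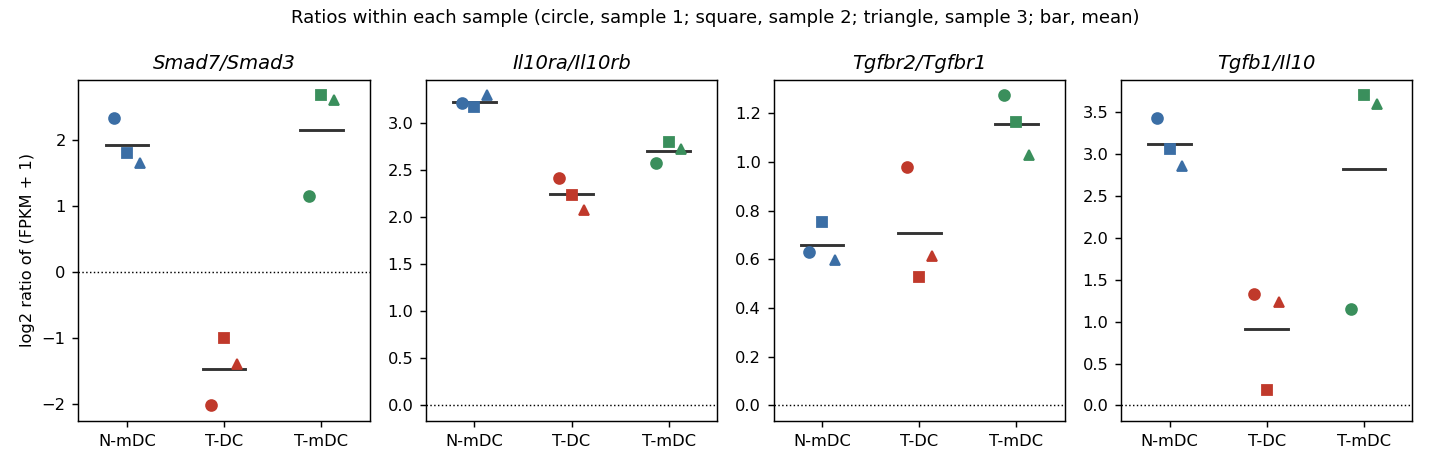
Log2 ratios of (FPKM + 1) of 4 pairs of genes within each sample, with 1 point per sample and a bar at the mean of the group (n = 3). Smad7/Smad3 is below 0 in all 3 T-DC samples and above 0 in all others, Il10ra/Il10rb separates the 3 groups, and T-mDC sample 1 lies with the T-DCs for Tgfb1/Il10.

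Downstream of the receptor, 11 genes of the kinases, STAT3 and transcripts that IL-10 induces in myeloid cells were tested. In T-DCs 4 fell and 1 rose against N-mDCs, and 6 fell against T-mDCs, beside 16.4% and 14.2% of all genes called. With the erythroid covariate 1 and 0 of them were called. Jak1 and Stat3 were not called in either comparison. The median difference was -0.71 and -1.10 log2(FPKM + 1), beside 0.05 and 0.07 over all tested genes. Etv3, a repressor that IL-10 induces in macrophages, was at 99.7, 29.1 and 78.2 FPKM in the N-mDCs, 9.82, 7.03 and 3.37 FPKM in the T-DCs and 65.4, 108 and 109 FPKM in the T-mDCs. T-DCs were below every other sample (-3.10, SE 0.49, limma adjusted p = 0.00545 against N-mDCs; -3.68, SE 0.49, limma adjusted p = 0.00307 against T-mDCs). Il4ra, a receptor chain for IL-4 and IL-13, fell in T-DCs against N-mDCs from a mean of 48.9 to 14.8 FPKM (-1.78, limma adjusted p = 0.0139). Tyk2, a kinase of the receptor, and Il1rn, the antagonist of the IL-1 receptor, fell against T-mDCs, from means of 39.8 to 16.7 and of 8.32 to 3.05 FPKM (limma adjusted p = 0.0178 and 0.0280). Both calls ended when T-mDC samples 2 and 3 were averaged.

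Socs3, the inhibitor that STAT3 induces, was the member of this list that rose, and it is named here after its values were seen. Its level was 23.9, 27.8 and 40.3 FPKM in the N-mDCs, 135, 69.4 and 49.4 FPKM in the T-DCs and 92.7, 59.0 and 60.8 FPKM in the T-mDCs. All samples of leukemic mice were above the N-mDCs. The difference was called for T-DCs against N-mDCs (1.34, SE 0.38, limma adjusted p = 0.0436), but in only 10 of 23 alternative settings. Socs1, of the same list, was called lower in T-DCs against N-mDCs (-0.88, limma adjusted p = 0.0408) and against T-mDCs (-1.13), without overlap in either. These calls of Socs1 held in 8 and 16 of 22 alternative settings. Between T-mDCs and N-mDCs limma called 0 of the 11 genes, with 3 at an unadjusted p under 0.05 and 0 called by limma voom.

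Tgfb1, the main TGF-beta ligand of blood cells, was lower in both populations of leukemic mice by mean, but no difference passed the test. Tgfb1 (ENSMUSG00000002603, chromosome 7, 25687002 to 25705077, plus strand) was at 65.3, 111 and 74.1 FPKM in the N-mDCs, 68.8, 46.6 and 37.0 FPKM in the T-DCs and 51.7, 48.0 and 47.8 FPKM in the T-mDCs. All T-mDC samples lay below all N-mDC samples, and T-DC sample 1 lay within the N-mDC range. The means were 83.6 ± 24.5 FPKM for N-mDCs, 50.8 ± 16.3 FPKM for T-DCs and 49.2 ± 2.18 FPKM for T-mDCs (SD, n = 3). Each difference was -0.72 log2(FPKM + 1) (95% interval -1.34 to -0.10), with limma adjusted p = 0.101 for T-DCs and 0.234 for T-mDCs. Without T-DC sample 1 the difference of T-DCs was -0.96 and was called (limma adjusted p = 0.0154). The ratio of Tgfb1 to Il10 in FPKM was 12.8, 8.91 and 7.90 in N-mDCs, 2.57, 1.14 and 2.44 in T-DCs and 2.28, 17.4 and 15.8 in T-mDCs. T-DCs did not overlap with N-mDCs (difference of log2 ratios -2.20, exact permutation p = 0.1), and they overlapped with T-mDCs through sample 1 (-1.90, exact permutation p = 0.3).

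Most other ligands and latent carriers were scarce. Tgfb2 stayed at or below 0.323 FPKM, Tgfb3 at or below 1.40 FPKM, and Ltbp1, Ltbp3 and Ltbp4, which tether latent TGF-beta to the matrix, at or below 0.898 FPKM. Inhba and Bmp4, ligands of the wider family, stayed at or below 0.555 FPKM. Gdf15, a distant member of the family that cells release under stress, was at 53.6, 164 and 96.5 FPKM in the N-mDCs, 56.4, 16.2 and 4.02 FPKM in the T-DCs and 21.5, 6.76 and 7.34 FPKM in the T-mDCs. It spread widely within each group and was not called. Lrrc32, which encodes GARP, the carrier of latent TGF-beta on regulatory T cells, was at 0.530 to 1.38 FPKM in the N-mDCs and at or below 0.174 FPKM in all other samples. The carrier of myeloid cells, Nrros, was abundant, at 148, 156 and 150 FPKM in the N-mDCs, 87.2, 56.0 and 38.1 FPKM in the T-DCs and 84.4, 88.7 and 91.4 FPKM in the T-mDCs. All samples of leukemic mice were below the N-mDCs, and the difference was called for T-DCs (-1.39, SE 0.27, limma adjusted p = 0.0120). Of the 11 ligands and carriers, 3 were tested, and 2 of these fell in T-DCs against N-mDCs, where 10.3% of all tested genes were called lower. The other was Ltbp2 (-1.05, limma adjusted p = 0.0177), at a mean of 0.204 FPKM in the T-DCs and 1.56 FPKM in the N-mDCs. With the level of the erythroid genes as a covariate, 0 of the 3 were called.

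Of the chains of the alphav and beta8 integrin, Itgav was tested and not called, and Itgb8 was not tested. Itgav (ENSMUSG00000027087, chromosome 2, 83724397 to 83806916, plus strand) was at 5.90, 3.36 and 5.68 FPKM in the N-mDCs, 11.1, 6.19 and 3.41 FPKM in the T-DCs and 5.74, 4.57 and 4.97 FPKM in the T-mDCs. The T-DC samples overlapped with both other groups, and T-DC sample 1 was the highest of all samples. The differences were 0.31 (95% interval -0.49 to 1.11) for T-DCs against N-mDCs, 0.26 (-0.54 to 1.05) against T-mDCs and 0.05 (-0.74 to 0.85) for T-mDCs against N-mDCs. In TPM the difference between T-DCs and T-mDCs was -0.03. Itgav overlaps Dnmt3l-ps1 and Gm13684 on the opposite strand.

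Itgb8 (ENSMUSG00000025321, chromosome 12, 119158022 to 119238802, minus strand) was barely detected. It had 12, 2 and 4 reads in N-mDCs, 27, 5 and 3 reads in T-DCs and 20, 20 and 22 reads in T-mDCs, or 0.0112 to 0.136 FPKM. T-mDCs were above all N-mDC samples, and T-DCs overlapped with both groups, so that T-DCs could not be placed in an order with them. The FPKM of Itgb8 was 0.00334 to 0.0218 times that of Itgav in all samples. Itgb6, the partner of the alphav chain in epithelia, had no read in any sample.

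Other activators were better represented, with 8 of 9 tested. Mmp14, a membrane protease, rose in T-DCs against N-mDCs, with 2.26, 1.03 and 1.39 FPKM in the N-mDCs and 10.1, 10.4 and 6.13 FPKM in the T-DCs (1.94, SE 0.41, limma adjusted p = 0.0157). T-mDCs had 17.5, 5.81 and 5.67 FPKM. Itgb3, another partner of the alphav chain, was at 25.3, 8.65 and 9.17 FPKM in the T-DCs and 5.59, 2.60 and 2.525 FPKM in the T-mDCs, and rose in T-DCs against T-mDCs (1.65, SE 0.40, limma adjusted p = 0.0297). Thbs1, encoding thrombospondin-1, which frees TGF-beta from its latent form, fell in T-mDCs against N-mDCs from 9.90, 14.0 and 65.6 FPKM to 0.628, 0.545 and 0.528 FPKM (-3.82, SE 0.74, limma adjusted p = 0.0403). It was called in only 9 of 23 alternative settings, and leaving out N-mDC sample 2 or 3 ended the call.

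No difference of either TGF-beta receptor passed the test. Tgfbr1 (ENSMUSG00000007613, chromosome 4, 47353222 to 47414931, plus strand) was at 13.9, 9.90 and 17.2 FPKM in the N-mDCs, 23.2, 13.6 and 7.41 FPKM in the T-DCs and 9.96, 5.92 and 6.62 FPKM in the T-mDCs. Tgfbr2 (ENSMUSG00000032440, chromosome 9, 116084293 to 116175360, minus strand) was at 22.01, 17.4 and 26.5 FPKM in the N-mDCs, 46.7, 19.99 and 11.9 FPKM in the T-DCs and 25.5, 14.5 and 14.6 FPKM in the T-mDCs. For both receptors T-DC sample 1 was the highest of all 9 samples, and the T-DCs overlapped with both other groups. Against T-mDCs the T-DCs differed by 0.79 for Tgfbr1 (95% interval -0.09 to 1.66; limma adjusted p = 0.208) and by 0.34 for Tgfbr2 (-0.69 to 1.36; limma adjusted p = 0.6445). Against N-mDCs the differences of T-DCs were 0.00 (-0.87 to 0.87) and 0.05 (-0.97 to 1.07), and those of T-mDCs were -0.78 (-1.66 to 0.09) and -0.29 (-1.31 to 0.74). The signs of both differences between T-DCs and N-mDCs turned with the scaling, to -0.11 and -0.06 in TPM.

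The chains were also compared within each sample. The FPKM of Tgfbr2 was 1.59, 1.75 and 1.54 times that of Tgfbr1 in N-mDCs, 2.01, 1.47 and 1.601 times in T-DCs and 2.56, 2.45 and 2.20 times in T-mDCs. T-mDCs lay above all other samples. The difference of the log2 ratios was 0.50 for T-mDCs against N-mDCs and -0.45 for T-DCs against T-mDCs, each with exact permutation p = 0.1 and 0.1875 after adjustment.

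Among the 5 other receptors tested of 6 listed, 1 rose and 1 fell in T-DCs in both of their comparisons. With N-mDCs as the reference, calls made up 16.4% of all tested genes (6.1% higher and 10.3% lower). With T-mDCs as the reference, they made up 14.2% (5.44% higher and 8.79% lower). Tgfbr3, a coreceptor that presents TGF-beta to TGFBR2, was at 0.586, 0.721 and 0.9004 FPKM in the N-mDCs, 11.2, 3.05 and 4.57 FPKM in the T-DCs and 2.40, 0.206 and 0.158 FPKM in the T-mDCs. T-DCs were above all other samples (1.91, SE 0.49, limma adjusted p = 0.0331 against N-mDCs; 1.95, SE 0.49, limma adjusted p = 0.0333 against T-mDCs). These calls held in 14 and 11 of 22 alternative settings. Acvrl1, the receptor ALK1, was at 14.2, 21.7 and 15.0 FPKM in the N-mDCs, 10.6, 4.61 and 2.39 FPKM in the T-DCs and 13.8, 19.2 and 17.8 FPKM in the T-mDCs. It fell in T-DCs, with differences of -1.55 against N-mDCs (SE 0.40, limma adjusted p = 0.0341) and -1.56 against T-mDCs (SE 0.40, limma adjusted p = 0.0366). Both were called in only some settings, 10 and 12 of 23. Eng, encoding endoglin, was at 9.61 and 17.3 FPKM in T-DC samples 2 and 3 and at or below 3.67 FPKM in all others. Acvr1b ranged from 4.77 to 18.1 FPKM, Bmpr2 from 1.23 to 3.79 FPKM and Bmpr1a from 0.114 to 0.425 FPKM.

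Smad3, which carries the signal of the activated receptor to the nucleus, was higher in T-DCs than in T-mDCs. Smad3 (ENSMUSG00000032402, chromosome 9, 63646767 to 63757994, minus strand) was at 5.20, 4.76 and 7.52 FPKM in the N-mDCs, 21.1, 9.27 and 7.76 FPKM in the T-DCs and 5.78, 2.48 and 2.55 FPKM in the T-mDCs. All T-DC samples lay above all other samples, T-DC sample 3 by little. T-DCs and T-mDCs had means of 12.7 ± 7.28 and 3.61 ± 1.89 FPKM (SD, n = 3). The difference passed the test at 1.52 log2(FPKM + 1) (SE 0.39; 95% interval 0.62 to 2.42; limma adjusted p = 0.0364). It kept its direction in all 23 alternative settings and passed in 12, and leaving out any N-mDC sample, T-DC sample 2, or T-mDC sample 2 or 3 ended the call, with differences of 1.36 to 1.67. T-DCs differed from N-mDCs by 0.90 (0.00 to 1.80; limma adjusted p = 0.141), which did not pass.

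The promoters of Tgfbr1, Tgfbr2 and Smad3 are shown because these genes act in 1 step of the signal, from the receptor to its Smad. Pearson r of log2(FPKM + 1) was 0.891 for Tgfbr1 and Tgfbr2, 0.831 for Tgfbr1 and Smad3 and 0.731 for Tgfbr2 and Smad3, and T-DC sample 1 was the highest sample of all 3. Other pairs were as close, such as Tgfbr2 and Itgav (0.888) and Il10ra and Tgfb1 (0.871). The sequences are those of RefSeq (GRCm38.p6), 250 bases before to 50 after a transcription start, 5′ to 3′ on the strand of the gene. Of the 10 genes, 6 had an entry. Capitals mark the GC box GGGCGG, which SP1 binds, or its reverse complement CCGCCC, and CAGAC, a short SMAD motif, or its reverse complement GTCTG. No GC box overlapped with CAGAC in these windows.
Tgfbr1, chr4:47352972-47353271, plus strand: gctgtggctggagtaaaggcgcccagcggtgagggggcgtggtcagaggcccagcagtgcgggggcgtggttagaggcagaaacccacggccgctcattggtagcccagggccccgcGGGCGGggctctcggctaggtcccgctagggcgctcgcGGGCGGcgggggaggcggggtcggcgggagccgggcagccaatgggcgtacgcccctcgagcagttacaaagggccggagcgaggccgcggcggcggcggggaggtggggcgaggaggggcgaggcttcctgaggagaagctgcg
Tgfbr2, chr9:116175314-116175613, minus strand: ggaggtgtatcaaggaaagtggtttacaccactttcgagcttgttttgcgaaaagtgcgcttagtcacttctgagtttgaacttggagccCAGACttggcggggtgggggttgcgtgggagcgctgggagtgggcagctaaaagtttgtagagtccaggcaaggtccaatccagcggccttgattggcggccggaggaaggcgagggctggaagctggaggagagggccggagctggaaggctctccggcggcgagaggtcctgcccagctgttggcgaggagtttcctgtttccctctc
Smad3, chr9:63757945-63758244, minus strand: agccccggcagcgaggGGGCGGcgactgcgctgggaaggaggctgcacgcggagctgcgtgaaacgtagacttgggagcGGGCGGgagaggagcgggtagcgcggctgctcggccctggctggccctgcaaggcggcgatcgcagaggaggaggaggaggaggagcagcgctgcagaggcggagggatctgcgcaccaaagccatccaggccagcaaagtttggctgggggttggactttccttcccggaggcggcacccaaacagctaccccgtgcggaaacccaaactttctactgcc

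The windows of Tgfbr1 and Smad3 each held 2 GC boxes and no CAGAC, and that of Tgfbr2 held 1 CAGAC and no GC box. Of 32851 RefSeq promoters of this length, 35.7% held a GC box on either strand and 49.6% held CAGAC on either strand. The full palindrome GTCTAGAC, held by 70 of all promoters, was in none of the 6 windows. G and C made up 74.7%, 59.0% and 67.7% of the bases of Tgfbr1, Tgfbr2 and Smad3.

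Smad7, the inhibitor of the pathway, was lower in T-DCs than in both other groups, and was called in the most settings of the 9 tested genes. Smad7 (ENSMUSG00000025880, chromosome 18, 75367529 to 75395935, plus strand) was at 30.2, 19.1 and 25.8 FPKM in the N-mDCs, 4.46, 4.12 and 2.35 FPKM in the T-DCs and 14.1, 21.2 and 20.6 FPKM in the T-mDCs. All 3 T-DC samples lay far below all others, T-DC sample 1 included, while N-mDCs and T-mDCs overlapped. The mean was 3.64 ± 1.14 FPKM (SD, n = 3) in T-DCs, against 25.0 ± 5.61 FPKM in the N-mDCs, which was 6.87 times as high, and 18.6 ± 3.96 FPKM in the T-mDCs, which was 5.12 times as high. On the log2(FPKM + 1) scale T-DCs differed by -2.50 from N-mDCs (SE 0.27; 95% interval -3.10 to -1.89; limma adjusted p = 0.00128) and by -2.09 from T-mDCs (SE 0.27; -2.70 to -1.48; limma adjusted p = 0.00256). The first call held in all 23 alternative settings. The second held in 22, and was lost with the erythroid genes as a covariate (-1.38, limma adjusted p = 0.225), a setting in which 0 of all 12746 genes were called. T-mDCs and N-mDCs differed by -0.40 (-1.01 to 0.20; limma adjusted p = 0.486). In the test over all 3 groups only Smad7 of the 9 genes was called (limma adjusted p = 0.00192), beside 18.0% of all tested genes.

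The mature DC markers Ccr7, Fscn1, Cd83, Cd40 and Relb moved with Smad7. They summed to 83.4, 79.4 and 25.3 FPKM in the T-DCs and to 1060 FPKM or more in every other sample, and their part in the difference of Smad7 was not tested.

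Set against each other within a sample, Smad7 and Smad3 changed places. Smad7 was 5.80, 4.001 and 3.43 times as high as Smad3 in N-mDCs and 2.43, 8.54 and 8.08 times in T-mDCs, but 0.212, 0.445 and 0.302 times in T-DCs. Smad3 was thus the higher of both in each T-DC sample and the lower of both in each other sample. The difference of the log2 ratios, with 1 added to each FPKM, was -3.40 from N-mDCs and -3.61 from T-mDCs, each with exact permutation p = 0.1 and 0.1875 after adjustment. It stayed between -3.12 and -4.11 whichever sample was left out.

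**Figure D4:**
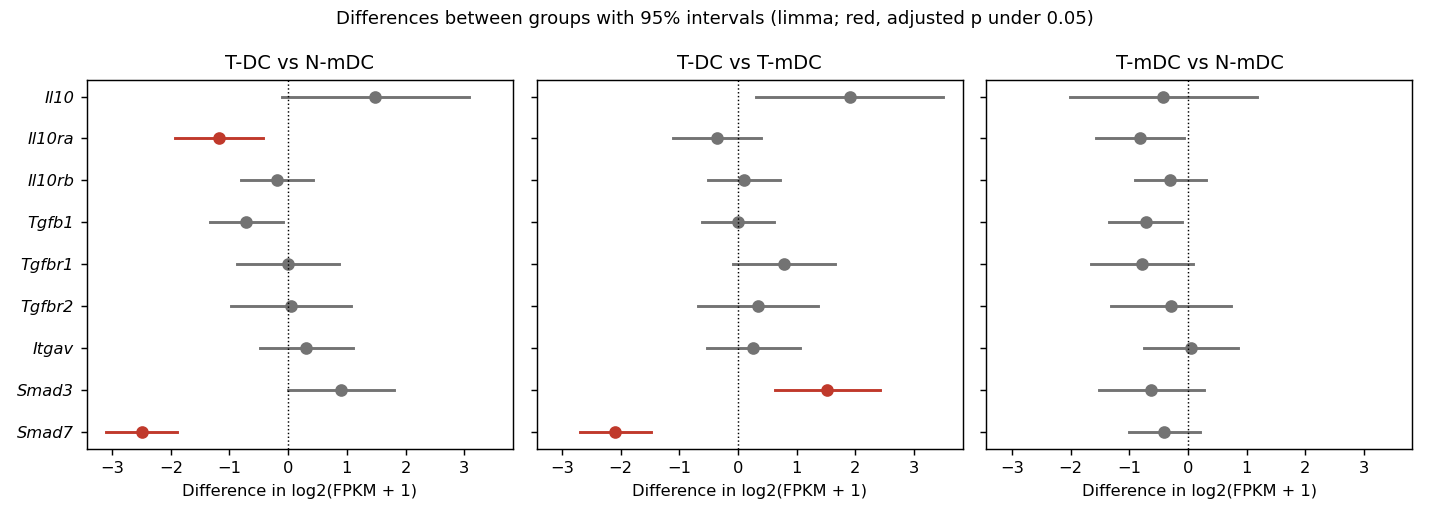
Differences in mean log2(FPKM + 1) of the 9 tested genes in the 3 comparisons, with 95% intervals from limma. Red marks an adjusted p under 0.05, which holds for Il10ra and Smad7 in T-DCs against N-mDCs and for Smad3 and Smad7 in T-DCs against T-mDCs.

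Taking the 9 tested genes by comparison, 2 fell and 0 rose in T-DCs against N-mDCs, Smad7 and Il10ra, where 16.4% of all tested genes were called (6.1% higher and 10.3% lower). Samples of 4 genes did not overlap there, Il10 and Smad3 higher and Il10ra and Smad7 lower, beside 32.4% of all genes (16.0% higher and 16.4% lower). In T-DCs against T-mDCs 1 gene rose, Smad3, and 1 fell, Smad7, where 14.2% of all genes were called (5.44% higher and 8.79% lower), and only these 2 did not overlap, beside 34.9% (16.8% higher and 18.1% lower). In T-mDCs against N-mDCs limma called 0 of 9, with 2 at an unadjusted p under 0.05 (Il10ra and Tgfb1) and 0 by limma voom, where 2.21% of all genes were called (0.69% higher and 1.52% lower). Samples of Il10ra, Il10rb and Tgfb1 were lower without overlap there, beside 35.0% of all genes (19.3% higher and 15.7% lower). Without T-DC sample 1 the called genes were 4 in T-DCs against N-mDCs (Il10ra, Il10rb, Tgfb1 and Smad7), 3 against T-mDCs (Il10ra, Smad3 and Smad7) and 1 in T-mDCs against N-mDCs (Il10ra). Over all 12746 tested genes the calls also rose in that setting, to 5030, 4475 and 1022.

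Of 5 other Smads, 4 were tested and limma called 0 in any comparison. In T-DCs against T-mDCs 2 had an unadjusted p under 0.05 and 2 were called by limma voom, and in T-DCs against N-mDCs these counts were 0 and 0. Without T-DC sample 1, 2 were called against N-mDCs and 3 against T-mDCs, where 5030 and 4475 of all 12746 tested genes were called. Smad2, the other receptor-activated Smad of TGF-beta, was at 16.2 to 16.7 FPKM in the N-mDCs, 9.78 to 15.8 FPKM in the T-DCs and 16.5 to 19.5 FPKM in the T-mDCs. Its T-DC samples lay below both other groups without overlap, but neither difference passed (-0.41 from N-mDCs and -0.56 from T-mDCs, with limma adjusted p = 0.1614 and 0.0869). Smad4, the common partner, was at 11.4 to 31.4 FPKM in the T-DCs and 16.4 to 31.3 FPKM in the N-mDCs. Smad1 and Smad5, which serve bone morphogenetic proteins, were at 1.998 to 9.83 and 2.97 to 5.12 FPKM over all samples, and Smad6, the inhibitor of that branch, stayed at or below 0.958 FPKM.

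Of 14 Smad cofactors and inhibitors, all tested, 6 fell and 1 rose in T-DCs against N-mDCs, and 5 fell and 3 rose against T-mDCs, beside 16.4% and 14.2% of all genes called. Genes of nuclear repressors of Smad2 and Smad3 were among those that fell. Tgif1 was at 30.2, 28.0 and 40.3 FPKM in the N-mDCs, 8.26, 7.47 and 4.31 FPKM in the T-DCs and 12.9, 23.5 and 23.5 FPKM in the T-mDCs (-2.16 and -1.44, SE 0.30, limma adjusted p = 0.00322 and 0.0178). Skil, which encodes SnoN, was at 39.5, 15.9 and 48.4 FPKM in the N-mDCs, 9.76, 6.68 and 3.68 FPKM in the T-DCs and 15.8, 29.0 and 29.0 FPKM in the T-mDCs (-2.15 and -1.76, SE 0.46, limma adjusted p = 0.0170 and 0.0379). T-DCs lay below all other samples for both. Smurf1 and Smurf2 encode ubiquitin ligases that SMAD7 brings to the receptor, and they moved in opposite directions. Smurf1 had a mean of 3.75 FPKM in the T-DCs, against 9.36 FPKM in N-mDC and 9.45 FPKM in T-mDC samples, and fell in T-DCs in both comparisons (-1.18 and -1.21, limma adjusted p = 0.0256 and 0.0254). Smurf2, named after its values were seen, had a mean of 24.0 FPKM in the T-DCs, against 8.90 and 10.02 FPKM in the same groups, and rose in both (1.28 and 1.13, limma adjusted p = 0.0279 and 0.0448). Its calls held in 15 and 10 of 23 alternative settings. Zfyve9, which encodes the SARA protein that presents Smads to the receptor, was at 14.1, 7.37 and 4.80 FPKM in the T-DCs and 3.83, 1.56 and 1.86 FPKM in the T-mDCs. It rose against T-mDCs (1.46, SE 0.40, limma adjusted p = 0.0448), but in only 9 of 22 alternative settings was it called.

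Of 10 genes known to respond to TGF-beta, all tested, 4 fell and 0 rose in T-DCs against N-mDCs, and 1 fell and 1 rose against T-mDCs, beside 16.4% and 14.2% of all genes called. Runx3, which TGF-beta induces in several blood lineages, was at 30.9, 20.1 and 29.6 FPKM in the N-mDCs, 5.36, 4.97 and 4.33 FPKM in the T-DCs and 15.9, 24.8 and 25.1 FPKM in the T-mDCs. It was the lowest in T-DCs without overlap (-2.22 and -1.94, SE 0.24, limma adjusted p = 0.00128 and 0.00234). Cdkn1a, the p21 inhibitor of the cell cycle, was at 38.4, 44.6 and 58.8 FPKM in the N-mDCs, 12.6, 15.4 and 7.17 FPKM in the T-DCs and 12.2, 15.4 and 15.7 FPKM in the T-mDCs. It fell in both populations of leukemic mice against N-mDCs (-1.96 and -1.63, SE 0.28, limma adjusted p = 0.00353 and 0.0263). Jun, a subunit of AP-1, fell from a mean of 756 to 207 FPKM in the T-DCs against N-mDCs (-2.02, limma adjusted p = 0.00917). Id1, which Smads of the bone morphogenetic protein branch also induce, was at 4.67, 3.06 and 2.27 FPKM in the T-DCs and 2.10, 0.535 and 0.422 FPKM in the T-mDCs, and was called higher against T-mDCs (1.16, SE 0.33, limma adjusted p = 0.0493), but in only 5 of 22 alternative settings.

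Over all 65 tested genes of both pathways besides the main 10, of 86 listed, 23 were called in T-DCs against N-mDCs (4 higher and 19 lower), 21 against T-mDCs (6 higher and 15 lower) and 4 in T-mDCs against N-mDCs (1 higher and 3 lower). Their median differences were -0.35, -0.11 and -0.10 log2(FPKM + 1), beside 0.05, 0.07 and 0.03 over all tested genes. Their shares called were 35.4%, 32.3% and 6.15%, beside 16.4%, 14.2% and 2.21% of all tested genes. The lists were chosen with earlier results of these data known, so these shares are a description and not a test. Without T-DC sample 1 the counts were 37, 37 and 15, and those of all genes rose alike, from 2096, 1813 and 282 to 5030, 4475 and 1022. When T-mDC samples 2 and 3 were averaged into 1 the count against T-mDCs was 2, and with the level of the erythroid genes as a covariate the counts for T-DCs were 9 and 0, with 577 and 0 of all genes.

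**Figure D5:**
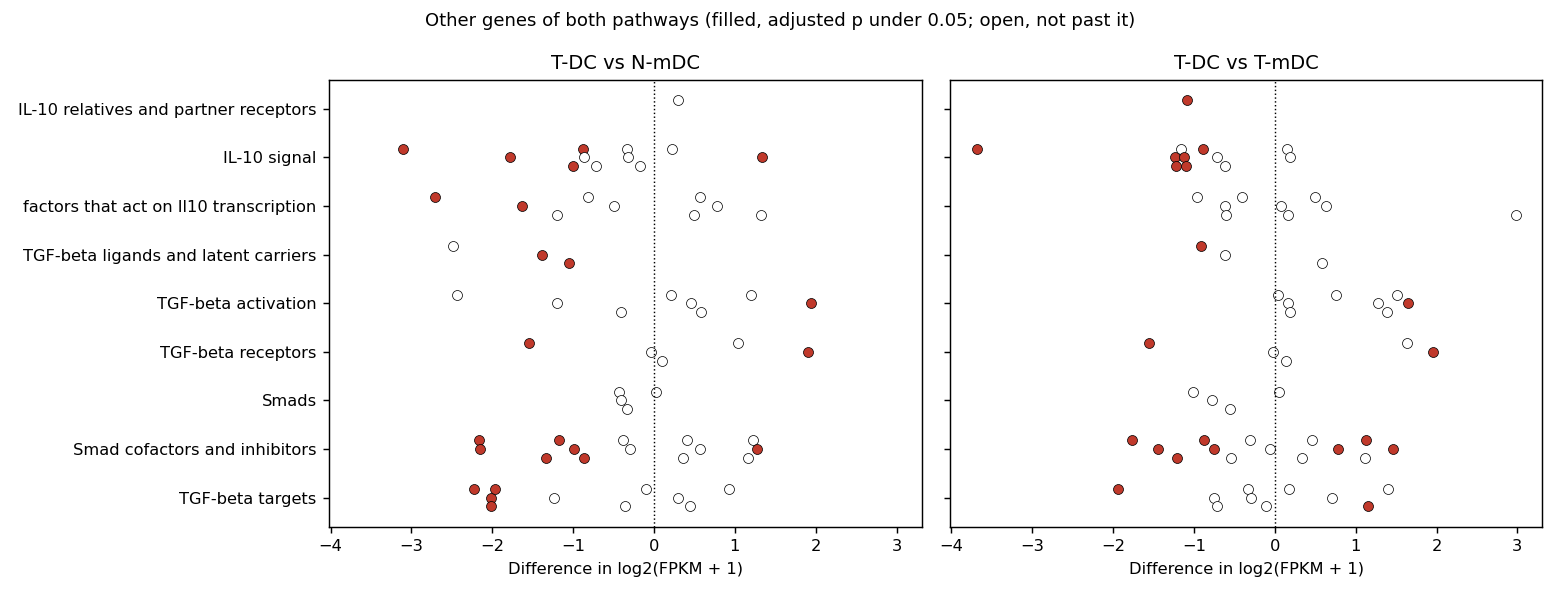
Differences in mean log2(FPKM + 1) of the tested genes of 9 lists of both pathways, in T-DCs against N-mDCs on the left and against T-mDCs on the right, with 1 point per gene. Filled points have a limma adjusted p under 0.05. Most filled points lie below 0, 19 of 23 on the left and 15 of 21 on the right.

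Ordered by mean FPKM, the 10 genes ran in N-mDCs from Il10ra (184) and Tgfb1 (83.6) to Smad7 (25.0), Tgfbr2 (21.95), Il10rb (18.8), Tgfbr1 (13.7), Il10 (9.01), Smad3 (5.83), Itgav (4.98) and Itgb8 (0.0335). Neighbours from Smad7 to Il10rb and from Tgfbr1 to Itgav overlapped in their samples. T-mDCs had the same first 5 genes, with Smad7 (18.6) in the third place. In T-DCs Il10 (27.6) took the third place and Smad7 (3.64) the ninth, and all neighbours down to Smad7 overlapped in their samples.

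The genes whose pattern over the 9 samples was most like that of each gene were named by Pearson r of log2(FPKM + 1), as a description over samples that fall into groups. For Smad7 these were Ahr (r = 0.996), Apol7c (0.994) and P2ry10 (0.994). Ahr encodes the aryl hydrocarbon receptor, and its mean was 48.5 ± 19.1 FPKM in the N-mDCs, 2.46 ± 1.08 in T-DCs and 28.6 ± 10.99 in T-mDCs (SD, n = 3). For Smad3 they were Hnmt (0.992), Fgd4 (0.989) and Wls (0.989). Hnmt, which encodes histamine N-methyltransferase, had a mean of 2.41 FPKM in the T-DCs, 0.865 FPKM in N-mDC and 0.350 FPKM in T-mDC samples. Il10ra was most like Fgd3 (0.992), H2-K1 (0.988) and Ppcdc (0.987), and of these H2-K1, a classical MHC class I gene, had means of 1282 FPKM in N-mDC, 920 FPKM in T-DC and 981 FPKM in T-mDC samples. Il10 had no gene as close, with Gm49131 (0.940), Rsrp1 (0.939) and Dnase1l1 (0.939) nearest. Il10rb was nearest to Csf2ra (0.972), the receptor chain for GM-CSF, Hsd17b11 (0.969) and Cyp4f13 (0.969), Tgfb1 to Dnal4 (0.983), Cox4i2 (0.980) and Lag3 (0.980), and Tgfbr1 to Iqsec2 (0.972), Dgka (0.967) and Zfand5 (0.963). Tgfbr2 was nearest to Gm14287 (0.982), Mapre2 (0.981) and Tpd52 (0.980), and Itgav to Sorl1 (0.980), Ankrd44 (0.969) and Mtm1 (0.969).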

How the data were processed

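RNA of sorted spleen DCs was sequenced by a company from libraries made with an Illumina protocol. The authors deposited FPKM for 54532 genes in 9 samples, on build mm10. The aligner, the counter and the annotation are not given in the sources used here, but 54409 genes are in GENCODE M21 and 98.3% of them have the same coordinates. Multiplying the deposited FPKM by the length of each gene recovered whole reads, to within 5.75e-05 of a read.

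Genes reaching an FPKM of 1 in 3 or more samples (12746) were analysed as log2(FPKM + 1) with limma 3.58.1 in R 4.3.3, fitting the 3 groups together, with a trend in the empirical Bayes step and p-values adjusted over all tested genes by Benjamini-Hochberg. Because 1 was added, differences of genes with low FPKM are understated. Ratios within a sample were compared by two-sided exact permutation tests in scipy 1.17.1. The procedure was tested on simulated data. The 10 genes, the lists and the tests were chosen with earlier results of these data known.

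The text names the 10 genes, in each comparison at most the 12 list genes of largest difference among those called, the list genes that are ligands, carriers, receptors or Smads, and for each tested gene the 3 genes of highest r. Among called list genes, Socs3, Socs1 and Smurf2 were outside this rule and were named after their values were seen. A total of 23 alternatives was run, among them another pseudocount (0.1), other filters (none, or FPKM of at least 5), scaling as TPM, by median of ratios or by quantiles, limma voom on recovered reads, array weights, a replicate block, an erythroid covariate and leaving out each sample. Other assays of the study were not used here. The values of 1 gene of the list of TGF-beta targets are not reported here.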

Additional observations from a re-analysis of the deposited data

How the results depend on the processing

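Over 75 gene differences and 23 alternatives, 1268 of 1710 values kept their direction and side of the threshold, 384 kept the direction but not the call, 21 became calls and 37 reversed. The causes were not tested. Depth limits Itgb8, with 2 to 27 reads per sample. Counts are given in the order of T-DCs against N-mDCs (first), then against T-mDCs (second), with T-mDCs against N-mDCs last. Of the 10 genes, 2, 2 and 0 were called. The first count was 1 with no filter, in TPM, with only the groups compared, when T-mDC samples 2 and 3 were averaged and with the erythroid covariate, and 6 with array weights, whose estimation did not converge. The second was 1 under the first 4 of these, 0 with the covariate and 7 with array weights, and the last was 1 with only the groups compared and 5 with array weights. The 3-group test called 1 gene, and 9 with array weights. Leaving out 1 sample gave 1 to 4, 1 to 3 and 0 to 1, and 1 to 3 in the 3-group test. Pathway genes called were 23, 21 and 4. With no filter the first counts were 15 and 7, an FPKM of at least 5 gave 13 and 2 for the others, and TPM gave 2 for the last. With only the groups compared they were 13, 6 and 14, with array weights 52, 54 and 29, and with the covariate 9 and 0 for T-DCs. Averaging T-mDC samples 2 and 3 gave 2 and 1 for the second and the last, and leaving out 1 sample gave 9 to 37, 2 to 37 and 1 to 15. All genes called were 2096, 1813 and 282. They were 1070, 1036 and 850 with only the groups compared, 8485, 9923 and 3841 with array weights, 577, 0 and 242 with the covariate, and 1395, 540 and 23 when T-mDC samples 2 and 3 were averaged. In the last comparison TPM gave 99, a pseudocount of 0.1 gave 107, voom gave 173 and an FPKM of at least 5 gave 111, and that filter gave 1190 in the second. TPM moved the median of all genes to -0.23 and 0.23 in the second and the last, and the share of calls that were higher from 38.2% to 21.9% and from 31.2% to 49.5%. In voom that share was 24.8% in the second, and the median was 0.13 in the last.

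Deviations of same-numbered samples from their group means did not all correlate above 0.1 (r from -0.475 to 0.269), so the numbers were not used as pairs. Whether a T-DC and a T-mDC sample came from the same spleen is not given in the sources used here. With a replicate block, 1 of the 10 genes was called in T-DCs against N-mDCs, 11 pathway genes in T-DCs against T-mDCs and 1 in the last comparison, and 1378, 1253 and 78 of all genes.

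The reversed differences were not called. In T-DCs against N-mDCs, Tgfbr1 went to -0.00527 (pseudocount 0.1), -0.11 (TPM), -0.0193 (median of ratios), -0.12 (quantiles), -0.0944 (array weights) and -0.0640 (voom), with -0.37 to 0.39 when 1 sample was left out. Tgfbr2 went to -0.0625 (TPM), -0.0947 (quantiles), -0.20 (array weights) and -0.0171 (voom), with -0.46 to 0.48. Il10rb went to 0.25 with the covariate, with -0.52 to 0.0530, and Itgav ran from -0.0568 to 0.67. In T-DCs against T-mDCs, Il10rb went to -0.22 (TPM), -0.0580 (quantiles), -0.0143 (array weights) and -0.0459 (voom), with -0.22 to 0.35. Il10ra went to 0.60 and Tgfb1 to 0.20 with the covariate, and Tgfb1 ran from -0.24 to 0.20, Tgfbr2 from -0.18 to 0.77 and Itgav from -0.11 to 0.62, the last at -0.0296 in TPM. In T-mDCs against N-mDCs, Il10 went to 0.0161 when T-mDC samples 2 and 3 were averaged, with -1.29 to 0.0406, and Itgav to -0.17 (array weights) and -0.32 (covariate), with -0.16 to 0.17. Of the log2 ratios, Itgb8/Itgav in T-DCs against N-mDCs was 0.38 with no pseudocount. With 1 sample left out it ran from -0.60 to 0.0432, from -0.64 to 0.00544 and from -0.0665 to 0.23 in the 3 comparisons. Tgfbr2/Tgfbr1 ran from -0.0895 to 0.14 in the first, and Smad7/Smad3 from -0.0486 to 0.71 and Tgfb1/Il10 from -0.74 to 0.53 in the last.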
